A study of Mus musculus with 5 samples.

Results

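*Postn*, *Cxcl12*, *Cxcl14*, *Snai1* and *Snai2* are genes that stromal cells of connective tissue and bone marrow are known to express. They were found by gene name in the table of genes that the study had called different between *Irf8*-OE and control bone marrow-derived dendritic cells (BMDCs), and they are 5 of the 1355 genes listed there. The choice therefore rests on the same values and the same samples that are described here, and their differences are given as a description with no test.

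The study asked how more interferon regulatory factor 8 (IRF8), a transcription factor of the dendritic and monocytic lineages, alters dendritic cells grown from mouse marrow. Leg bone marrow of C57BL/6 mice aged 8 weeks, male according to the labels, was grown with Flt3L at 200 ng/ml and GM-CSF at 5 ng/ml, replated on day 9 and sampled as non-adherent cells on days 15 to 16. TNF-α stimulation is listed in the labels of every sample, at 20 ng/ml in the protocol. mRNA selected by its poly-A tail was sequenced from 3 *Irf8*-OE and 2 control samples. *Irf8*-OE cells carried a Flag-tagged *Irf8* transgene behind a CAG promoter and a loxP-stop-loxP cassette, released by Cre under the *Itgax* (CD11c) promoter, so the transgene is confined by design to cells that have used that promoter. Control cells are labelled wild type, while the methods of the study describe controls with the *Irf8* CAG-LSL cassette and no Cre. It is not stated whether each sample came from its own animal, so the spread between samples may be technical.

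Periostin, the product of *Postn*, is a secreted matricellular protein that binds collagen and integrins and is abundant where fibroblasts remodel matrix. CXCL12 and CXCL14 are homeostatic chemokines, made at rest rather than only in inflammation. CXCL12 acts through the receptor CXCR4 and holds blood-forming cells in their marrow niche, whereas the receptor of CXCL14 is less settled. SNAI1 (Snail) and SNAI2 (Slug) are zinc-finger repressors that bind E-box sequences, switch off epithelial cadherin and take part in epithelial to mesenchymal transition.

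All 5 genes are protein-coding and none overlapped another annotated gene. On GRCm38, *Postn* (ENSMUSG00000027750) lies at chr3:54361109-54391037 on the + strand and *Cxcl12* (ENSMUSG00000061353) at chr6:117168535-117181367 on the + strand. *Cxcl14* (ENSMUSG00000021508) lies at chr13:56288643-56296551 on the − strand. *Snai1* (ENSMUSG00000042821) lies at chr2:167538195-167542814 and *Snai2* (ENSMUSG00000022676) at chr16:14705852-14709385, both on the + strand. They are on 5 different chromosomes, and none is on X or Y. *Postn* is annotated with 9 transcripts and *Cxcl12* with 4, *Cxcl14* has 2, and each of the SNAIL genes has 1 transcript of 3 exons.

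Promoter windows from RefSeq (GRCm38.p6) were available for 4 of the 5 genes and are shown as a description only. Each sequence is the 250 bases before the annotated start, 5′ to 3′ on the strand of the gene, and capitals mark a match to a searched motif.
*Postn* promoter, chr3:54360857-54361106 (+ strand): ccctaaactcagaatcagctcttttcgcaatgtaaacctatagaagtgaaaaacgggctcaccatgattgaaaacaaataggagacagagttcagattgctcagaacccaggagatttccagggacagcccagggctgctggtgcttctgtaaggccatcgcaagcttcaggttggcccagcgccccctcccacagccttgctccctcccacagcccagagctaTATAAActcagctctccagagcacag
*Cxcl12* promoter, chr6:117168285-117168534 (+ strand): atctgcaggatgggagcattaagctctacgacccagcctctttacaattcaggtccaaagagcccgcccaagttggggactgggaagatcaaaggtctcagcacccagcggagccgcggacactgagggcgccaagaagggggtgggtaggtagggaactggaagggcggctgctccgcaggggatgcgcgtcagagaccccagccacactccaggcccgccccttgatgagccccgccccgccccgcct
*Cxcl14* promoter, chr13:56296552-56296801 (− strand): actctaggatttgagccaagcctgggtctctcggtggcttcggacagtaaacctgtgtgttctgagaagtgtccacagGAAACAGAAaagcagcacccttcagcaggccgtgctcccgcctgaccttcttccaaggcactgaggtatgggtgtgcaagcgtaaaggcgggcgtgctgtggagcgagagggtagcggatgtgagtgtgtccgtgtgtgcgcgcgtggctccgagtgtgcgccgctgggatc
*Snai1* promoter, chr2:167537945-167538194 (+ strand): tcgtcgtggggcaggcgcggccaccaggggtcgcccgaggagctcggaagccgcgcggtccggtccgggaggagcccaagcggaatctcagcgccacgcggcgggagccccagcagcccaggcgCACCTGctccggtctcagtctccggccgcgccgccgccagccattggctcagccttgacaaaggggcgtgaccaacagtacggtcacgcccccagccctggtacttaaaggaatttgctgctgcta
The motifs searched on both strands were CAGGTG (the E-box bound by SNAIL proteins), GAAANNGAA and GGAANNGAA (cores of interferon-stimulated and ETS-IRF elements) and TATAAA (the TATA box). Within the whole windows of 300 bases, which run 50 bases past the start, the *Postn* window held TATAAA with its first base at −26. The *Cxcl14* window held GAAACAGAA, a match to GAAANNGAA, at −172, and the *Snai1* window held CACCTG, which is CAGGTG on the opposite strand, at −126. The *Cxcl12* window held none of the 4 motifs. Among all 32851 windows of that length, TATAAA was found in 13.6%, GAAANNGAA in 8.56%, GGAANNGAA in 8.24% and CAGGTG in 20.2%. Among the 1142 windows of listed genes the shares were 10.7%, 11.7%, 7.27% and 21.5% in that order. The windows also differed in base composition. GC content was 53.0% for *Postn*, with 5 CpG dinucleotides, against 62.7% for *Cxcl14*, 64.7% for *Cxcl12* and 70.0% for *Snai1*, with 22, 20 and 34 CpG dinucleotides, and the median over all windows was 52.7%. These are matches of letters, and binding was not measured.

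Levels are given as normalized counts, which are the reads of a gene divided by 1 size factor for each sample and not by gene length. The listed genes held 646123 to 1062127 reads in each sample, a number that says nothing of library depth, and 3 reads correspond to 2.80 to 3.37 normalized counts. *Irf8* itself, the overexpressed gene, was at 7141, 6519 and 6021 normalized counts in *Irf8*-OE 1, 2 and 3 and at 2835 and 2747 in Control 1 and 2 (log2 fold change 1.23, SE 0.08). The sex-linked genes also split the samples. *Xist*, transcribed from the inactive X chromosome, ranged from 10772 to 13476 normalized counts with *Irf8*-OE and from 0 to 1.12 without, and *Uty*, *Kdm5d*, *Eif2s3y* and *Ddx3y* of the Y chromosome were at 0 in every *Irf8*-OE sample and at 484 to 1385 in the controls. The 3 libraries labelled *Irf8*-OE thus went against their labelled male sex, and genotype and sex cannot be told apart in any difference below. In the same table, mast cell and basophil markers had a summed level of 230513 to 234955 normalized counts in control samples, against 35749 to 39516 with *Irf8*-OE. *Cpa3* alone made up most of the control sum, at 177303 ± 3068 against 22297 ± 2007. Of the 9 listed markers 7 were lower and 2 were higher. The higher ones were *Mcpt8*, at 1233 ± 39.3 with *Irf8*-OE against 178 ± 14.6, and *Prss34*, at 1453 ± 110 against 118 ± 29.2. Of 14 dendritic cell markers only *Itgae*, which encodes CD103, and *Cd24a* are among the listed genes, with log2 fold changes of 1.62 and −1.38, and the others were not analysed here.

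All 5 genes had more reads in *Irf8*-OE, by log2 fold changes between 1.03 and 3.16, and in none of them did a control sample reach the lowest *Irf8*-OE sample. This is the pattern by which the table was made. Of all 1355 listed genes, 58.1% were called higher and 41.0% were called lower by limma, with an adjusted p of less than 0.05 and a log2 difference of more than 1 in size, and 100% had groups that did not overlap, so the counts of 5 of 5 called higher and 5 of 5 without overlap carry nothing beyond the choice. Of the 5 genes, 2 were still called with quantile normalization and 2 with the size factors of DESeq2, 4 with TMM in edgeR, and 3 without Control 2. The genes fell into a pair with large differences, *Postn* and *Cxcl12*, and a group with smaller ones, *Cxcl14*, *Snai1* and *Snai2*. Together they took 0.184%, 0.183% and 0.185% of the reads on listed genes in the *Irf8*-OE samples (1224, 1261 and 1195 reads), and 0.0237% and 0.0213% in the controls (214 and 226 reads). These shares also depend on the other listed genes. All listed genes held 638352 to 648930 normalized counts in *Irf8*-OE and 1.01e+06 to 1.02e+06 in the controls, so the shares differ more than the normalized counts of the 5 genes do. In a bulk sample, more cells of a type and more RNA from each such cell cannot be told apart.

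**Figure D1:**
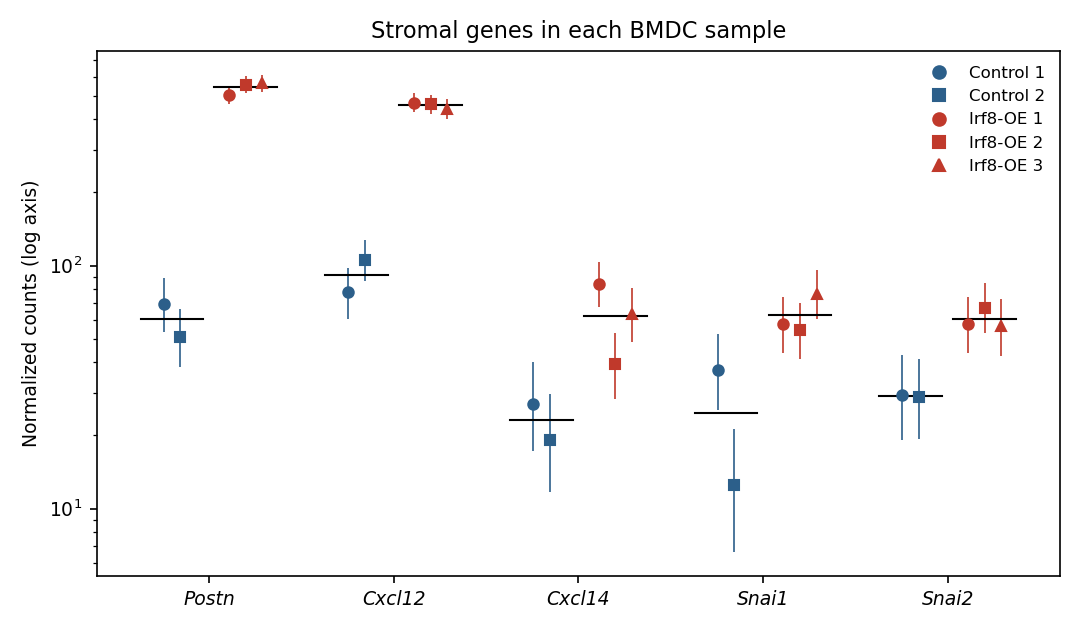
Normalized counts (log axis) of the 5 stromal genes in each sample, with exact 95% Poisson intervals for counting error as vertical lines and group means as black bars. *Postn* and *Cxcl12* are separated by wide gaps between controls (blue) and *Irf8*-OE (red), and the gap narrows to 1.45 times for *Cxcl14* and 1.46 times for *Snai1* between the nearest samples of the groups.

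*Postn*, the matrix protein, showed the largest difference of the 5. Its normalized counts were 505, 556 and 562 in *Irf8*-OE 1, 2 and 3 and 69.7 and 50.9 in Control 1 and 2. The *Irf8*-OE samples lay close together, at 541 ± 31.3 (SD, n = 3), and the controls were at 60.3 ± 13.3 (SD, n = 2). The ratio of the means was 8.98, the log2 fold change was 3.16 (SE 0.15), and the lowest *Irf8*-OE sample was 7.25 times the highest control. By size, this was the difference ranked 117 among the 797 listed genes that were higher. *Postn* transcripts were not absent in the controls, where 62 and 53 reads were counted.

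*Cxcl12*, the chemokine that retains stem cells in marrow, followed. It was at 469, 461 and 442 normalized counts in *Irf8*-OE 1, 2 and 3 and at 77.5 and 105.6 in Control 1 and 2. The *Irf8*-OE samples were the tightest of the 5 genes in that group, with a coefficient of variation of 3.02% around 457 ± 13.8 (SD, n = 3). The control mean was 91.6 ± 19.8 (SD, n = 2), which gave a ratio of means of 4.99 and a log2 fold change of 2.32 (SE 0.14). Its rank was 268 of 797. The controls differed in opposite directions for the pair, since Control 1 was the higher for *Postn* and Control 2 the higher for *Cxcl12*. For each gene, however, the counting intervals of the controls overlapped. The ratio of *Postn* to *Cxcl12* reads, on which gene length bears alike in every sample, was 0.899 and 0.482 in Control 1 and 2 and 1.08, 1.2 and 1.27 in *Irf8*-OE 1, 2 and 3, so it was higher in every *Irf8*-OE sample than in either control. The control ratios rest on 62 and 69 reads in Control 1 and on 53 and 110 reads in Control 2, and their counting error was not computed.

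*Cxcl14*, the other chemokine, varied more among the *Irf8*-OE samples than any of the other 4 genes did. It was at 84.3, 39.2 and 63.3 normalized counts in *Irf8*-OE 1, 2 and 3 and at 27.0 and 19.2 in Control 1 and 2. The counting intervals of *Irf8*-OE 1 (67.6 to 103.9) and *Irf8*-OE 2 (28.3 to 53.0) did not overlap, and that of *Irf8*-OE 2 overlapped those of both controls. The means were 62.3 ± 22.6 (SD, n = 3) and 23.1 ± 5.50 (SD, n = 2), with a log2 fold change of 1.35 (SE 0.35) and a rank of 569 of 797. Without *Irf8*-OE 1 the log2 fold change was 1.10, and without *Irf8*-OE 2 it was 1.64.

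The SNAIL genes had the smallest counts per gene together with *Cxcl14*, with no account taken of gene length. *Snai1* was at 57.5, 54.2 and 76.3 normalized counts in *Irf8*-OE 1, 2 and 3 and at 37.1 and 12.5 in Control 1 and 2, or 33 and 13 reads. Its controls differed 2.97-fold, and their counting intervals, 25.5 to 52.1 and 6.64 to 21.3, did not overlap. The means were 62.7 ± 12 (SD, n = 3) and 24.8 ± 17.4 (SD, n = 2), a log2 fold change of 1.47 (SE 0.44) that moved to 2.22 without Control 1 and to 0.73 without Control 2. The size of the *Snai1* difference thus rested on which control was used. Its direction could not change with a control left out, since the groups of every listed gene did not overlap. The counting interval of Control 1 overlapped those of *Irf8*-OE 1 (43.9 to 74.0) and *Irf8*-OE 2 (41.1 to 70.0).

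*Snai2* was at 57.5, 67.2 and 56.2 normalized counts in *Irf8*-OE 1, 2 and 3 and at 29.2 and 28.8 in Control 1 and 2. Its controls were nearly equal, with means of 60.3 ± 6.01 (SD, n = 3) and 29.0 ± 0.305 (SD, n = 2). The log2 fold change of 1.03 (SE 0.20) was the smallest of the 5, ranked 766 of 797, and lay beside the study's threshold of 1 for entry into the table. The ratio of *Snai1* to *Snai2* reads was 1, 0.806 and 1.36 in *Irf8*-OE 1, 2 and 3 and 1.27 and 0.433 in Control 1 and 2, so its values overlapped between the groups.

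**Figure D2:**
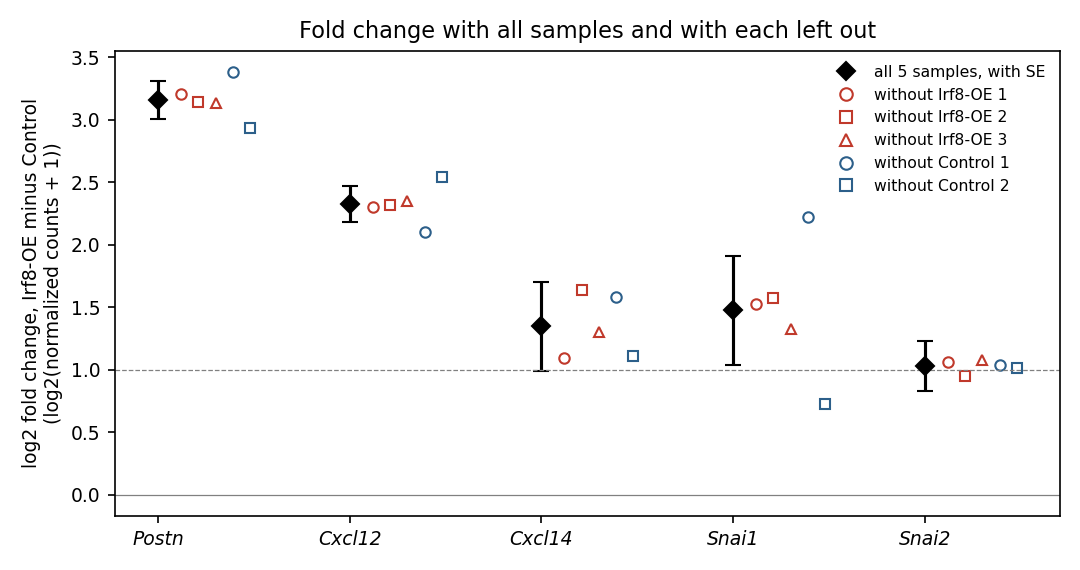
Log2 fold change of each gene, *Irf8*-OE minus Control, on the log2(normalized counts + 1) scale, with all 5 samples (black diamonds, error bars are SE) and with each sample left out in turn (open symbols). The dashed line marks 1. The open symbols of *Snai1* spread from 0.73 to 2.22, and those of *Snai2* stay between 0.95 and 1.07.

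The spread between samples of a group was set beside that of listed genes whose mean over all 5 samples lay within 1.5-fold of the same level. The match was not made within a group, so genes of similar level could have more or fewer counts in that group, and with them less or more counting error. In *Irf8*-OE, the range from the lowest to the highest sample was 0.15 on the log2 scale for *Postn* and 0.08 for *Cxcl12*, where the median of 167 genes of similar level was 0.22 and 0.23. For *Cxcl14* the range was 1.09 against a median of 0.48, and 95.2% of 270 such genes had a smaller one. In the controls the order was another. *Postn* and *Cxcl12* differed between the 2 controls by 0.45 and 0.44, against a median of 0.12 for each, and 94.0% and 92.8% of the genes of similar level differed less. Yet the counting intervals of the 2 controls overlapped for *Postn* (53.4 to 89.3 and 38.1 to 66.5) and for *Cxcl12* (60.3 to 98.1 and 86.8 to 127.2). *Snai1* differed by 1.5 against a median of 0.31, more than 97.4% of 266 genes, and *Snai2* by 0.02, more than 4.89% of them.

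For an order of the 5 genes by level, normalized counts were taken per kb of annotated exon sequence. In *Irf8*-OE, *Postn* was at 62.2 ± 3.59 per kb and *Cxcl12* at 55.9 ± 1.69, then *Snai1* at 38.7 ± 7.37, *Cxcl14* at 34.1 ± 12.4 and *Snai2* at 29.8 ± 2.97 (SD, n = 3). *Postn* was above *Cxcl12*, and *Cxcl12* above the other 3, in every pair of *Irf8*-OE samples. *Cxcl14* overlapped both SNAIL genes, and *Snai1* stood above *Snai2* by as little as 33.4 against 33.3 per kb. In the controls *Postn* and *Cxcl12* had the lowest means of the 5, with *Postn* at 6.93 ± 1.53, *Cxcl12* at 11.2 ± 2.42, *Cxcl14* at 12.6 ± 3.01, *Snai2* at 14.4 ± 0.151 and *Snai1* at 15.3 ± 10.7 (SD, n = 2). Control 1 and Control 2 ordered the genes differently, *Snai1* overlapped each of the other 4 genes, and *Cxcl12* and *Snai2* each overlapped *Cxcl14*. The control order also depended on the length used. With the longest coding transcript, 3205 bases in place of 8702 for *Postn* and 5627 in place of 8176 for *Cxcl12*, *Postn* was at 18.8 and *Cxcl12* at 16.3 per kb in the controls, the highest means of the 5, and at 168.8 and 81.3 in *Irf8*-OE. With that length *Postn* still overlapped *Cxcl12* and *Snai1* in the controls, and *Cxcl12* overlapped all of the other 4 genes. The order in *Irf8*-OE was the same with both lengths. With the length of all annotated exons, *Postn* stood at percentile 32.3 of the control per-kb levels of all listed genes and at percentile 69.3 of those in *Irf8*-OE. The percentile was not computed with the longest coding transcript, so for *Postn* it holds for the first length only. By the same exon length, *Snai2* stood at percentiles 44.9 and 54.8.

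**Figure D3:**
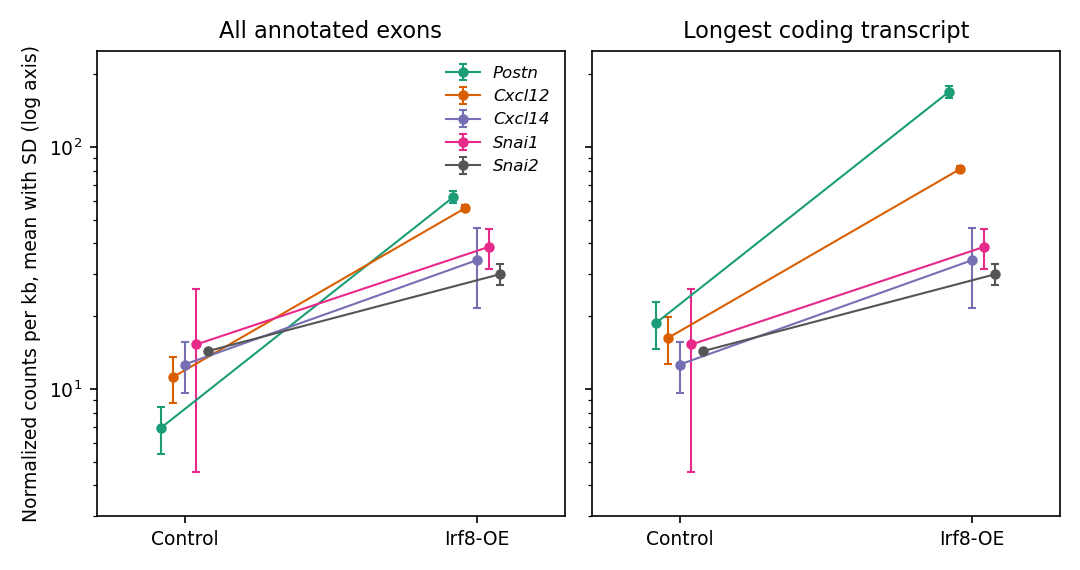
Mean normalized counts per kb (log axis, error bars are SD) of the 5 genes in Control (n = 2) and *Irf8*-OE (n = 3), with the length of all annotated exons on the left and of the longest coding transcript on the right. *Postn* is the lowest of the 5 in the controls on the left, at 6.93, and has the highest mean there on the right, at 18.8, and it is the highest in *Irf8*-OE in both panels.

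The genes whose profiles over the 5 samples lay nearest to each stromal gene were sought by Euclidean distance between centred log2 profiles. Nearest to *Postn* were *Olfm4* (distance 0.230), *Ms4a6b* (0.257) and *Csn2* (0.306), and nearest to *Cxcl12* were *Itga11* (0.132), which encodes a collagen-binding integrin subunit, and *Trp53i11* (0.175). Around *Cxcl14* no listed gene came nearer than *Adm* at 0.439, followed by *Map3k9* at 0.447 and *Svep1* at 0.465. The neighbours of *Snai1* were *Mill2* (0.339), *Tmem215* (0.411) and *Lgr4* (0.477), all of which also had more normalized counts in Control 1 than in Control 2, as *Lgr4* did with 51.7 and 25.9. The neighbours of *Snai2* were *Ghr* (0.137), the growth hormone receptor, *Lmnb1* (0.138) and *Sned1* (0.156). Among themselves the 5 genes, whose log2 fold changes differ in size, lay at distances from 1.06 between *Cxcl14* and *Snai1* to 2.36 between *Postn* and *Snai2*. The 5 samples are all that these distances rest on.

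Other genes of the same classes are given from gene lists, and only genes that the study had called appear in the table. Below, a listed gene that rose or fell is one called by limma at the thresholds above. The list counts are counts among genes chosen for their difference, and the median log2 fold change over all listed genes was 1.14. Over the 797 listed genes with a log2 fold change above 0 it was 1.81, which is the value to set beside a list whose listed genes all rose. None of the 78 listed genes counted here, the 5 stromal genes included, changed direction under any alternative of scaling, filter or model in which it was fitted. The groups of every listed gene did not overlap by the choice of the table, so a kept direction adds little.

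Of 51 other matricellular proteins and matrix glycoproteins, 13 were listed and all 13 rose, with a median log2 fold change of 1.82 (1.76 with *Spon2*, which was at the floor of 3 reads in the controls, at its bound) and a range of 1.04 to 3.02. *Tgfbi*, a paralogue of periostin that shares its fasciclin domains, had 13467 ± 661 normalized counts with *Irf8*-OE against 5015 ± 30.2 without (log2 fold change 1.42, SE 0.06). *Sparc*, a collagen-binding matricellular protein, was at 3029 ± 8.14 against 1012 ± 49.7. *Thbs2*, a thrombospondin, was at 884 ± 32.2 against 295 ± 15.3, and *Efemp2*, a fibulin needed for elastic fibres, at 543 ± 21.0 against 263 ± 16.1. The log2 fold changes of these 4 abundant matrix genes, 1.04 to 1.58, were smaller than the 3.16 of *Postn*. Of 17 enzymes and chaperones of matrix maturation, 6 were listed and all 6 rose, with a median log2 fold change of 1.55. *Lox*, a lysyl oxidase that crosslinks collagen and elastin, was at 3228 ± 574 against 1528 ± 175, and *Loxl1* at 410.0 ± 42.8 against 123.8 ± 17.7. *Serpinh1*, the collagen chaperone, had a log2 fold change of 1.28 (SE 0.11) and *Pcolce*, an enhancer of procollagen processing, of 1.38 (SE 0.13). The 4 integrin genes searched as periostin receptors, *Itgav*, *Itgb1*, *Itgb3* and *Itgb5*, were not among the listed genes and were not analysed here.

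*Cxcl12* and *Cxcl14* were the only listed genes of 9 homeostatic chemokines. None of the 10 receptor genes searched for that family, *Cxcr4* and *Ackr3* included, was listed, so no receptor was analysed here. Of 13 other factors of the marrow stromal niche, 3 were listed and they went in both directions. *Kitl*, the stem cell factor that marrow stroma supplies to blood-forming cells, rose from 14.7 ± 3.10 normalized counts to 51.9 ± 9.12, a log2 fold change of 1.75 (SE 0.27). *Lepr*, the leptin receptor by which CXCL12-rich stromal cells of marrow are often marked, fell from 672 ± 36.4 to 212 ± 14.5, a log2 fold change of −1.66 (SE 0.10). *Bmp4*, a bone morphogenetic protein, fell from 28.3 ± 6.08 to between 0.959 and 3.01, at most 3 reads in each *Irf8*-OE sample. *Cxcl12* and *Kitl* were thus higher in the samples where *Lepr* was lower.

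Of 22 other mesenchymal transcription factors, 3 were listed and all 3 rose, with log2 fold changes of 1.07 to 1.32. *Twist1*, which like the SNAIL genes drives mesenchymal transition, was at 52.5 ± 3.44 against 24.5 ± 3.47, a log2 fold change of 1.07 (SE 0.22). The paired-related homeobox genes *Prrx1* and *Prrx2* had log2 fold changes of 1.10 (SE 0.14) and 1.32 (SE 0.17). *Snai3*, *Zeb1*, *Zeb2* and *Twist2* were not among the listed genes. Of 20 genes that mark the epithelial or mesenchymal state, 3 were listed and all 3 rose. *Cdh1*, the epithelial cadherin that SNAI1 and SNAI2 are known to repress and that some dendritic cells carry, was at 2401 ± 182 against 609 ± 21.8, a log2 fold change of 1.97 (SE 0.08). *Acta2*, smooth muscle actin, was at 1243 ± 6.09 against 482 ± 1.76, and *Mmp2*, a gelatinase, at 1221 ± 105.0 against 404.5 ± 14.2. The epithelial gene and the mesenchymal genes were thus higher in the same samples as *Snai1* and *Snai2*. Of 35 genes of the TGF-β and BMP pathways, which act upstream of both SNAIL genes and of periostin, 7 were listed, of which 4 rose and 3 fell. *Tgfbr1*, the type I receptor, fell from 5073 ± 15.0 to 2456 ± 297 and *Bmp7* from 154.7 ± 10.6 to 20.6 ± 3.79, while the co-receptor *Tgfbr3* rose from 138.4 ± 41.1 to 318 ± 16.0.

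**Figure D4:**
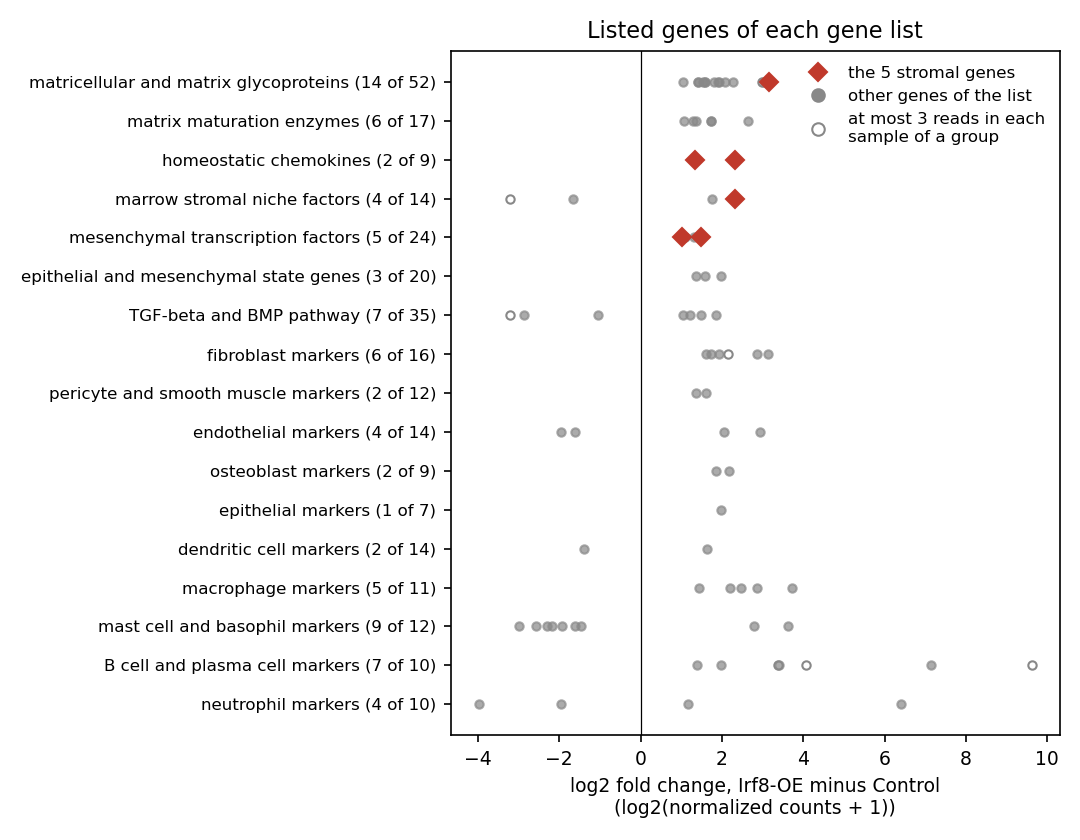
Log2 fold change, *Irf8*-OE minus Control on the log2(normalized counts + 1) scale, of every listed gene of each gene list, with the number listed of the number searched. Red diamonds are the 5 stromal genes, grey circles the other genes, and open circles genes with at most 3 reads in each sample of a group, whose values are no measure of size. All listed matrix, fibroblast and mesenchymal genes lie to the right of 0. So do the macrophage, B cell and plasma cell, osteoblast, pericyte and smooth muscle, and epithelial lists, and 58.1% of all listed genes were called higher. The marrow niche, TGF-β, endothelial, dendritic cell, mast cell and neutrophil lists lie on both sides.

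Markers of other cell types were listed in part, and they went in both directions. Of 16 fibroblast markers, 6 were listed and all 6 rose, with a median log2 fold change of 2.05 (2.18 with *Islr* at its bound). Their summed level was 7526 to 8681 normalized counts with *Irf8*-OE against 1666 to 1675 without. *Col1a1* was at 2794 ± 286 against 318 ± 44.9 and *Col1a2* at 3873 ± 245 against 1009 ± 34.0, the type I collagen chains, and *Serpinf1* at 452 ± 11.4 against 146 ± 3.12. *Col1a1*, with a log2 fold change of 3.13 (SE 0.12), lay nearest in size to the 3.16 of *Postn* among them. *Islr* had at most 3 reads in each control, 1.92 to 3.37 normalized counts, against 9.04 to 28.9 with *Irf8*-OE. The fibroblast markers *Pdgfra*, *Pdgfrb*, *Thy1*, *Lum* and *Dcn* were not among the listed genes and were not analysed here. Both listed osteoblast markers rose, *Sp7* from 4.73 ± 1.26 to 25.2 ± 7.47 and *Alpl* from 55.3 ± 11.4 to 202 ± 14.5, of 9 searched. Both listed markers of pericytes and smooth muscle rose, *Acta2* as above and *Cnn1* from 14.9 ± 2.00 to 48.2 ± 9.73, of 12 searched. Of 14 endothelial markers 4 were listed, of which *Tie1* and *Esam* rose and *Pecam1* and *Erg* fell, and their summed level was lower with *Irf8*-OE, at 1114 to 1182 normalized counts against 2955 to 3041. Macrophage markers also rose, all 5 listed of 11, and had a summed level of 21322 to 26067 normalized counts with *Irf8*-OE against 4082 to 4263 without. The part that any of these cell types had in the levels of the 5 genes was not tested.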

How the data were processed

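RNA-seq of 3 *Irf8*-OE and 2 control BMDC samples was analysed from the table of differentially expressed genes that the authors deposited. Samples were grouped by their labels. The signal values in this table are normalized counts, which the authors made from the reads of each gene with 1 size factor per sample, and the deposited table pairs them with gene length and position. The submitters' processing notes name fastp, HISAT2 2.0.5, featureCounts 1.5.0-p3, DESeq2 1.20.0 and edgeR 3.22.5 and the build mm10. Columns with the authors' group means, log2 fold changes and p-values were not used. The table holds only genes the authors had called, so other genes were not analysed here. Of its 1355 identifiers, 1354 are in GENCODE vM21 (GRCm38), from which transcripts and overlaps were taken.

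Whole reads were recovered as multiples of 1 step per sample in 100% of values (tolerance 0.01), and exact Poisson intervals at 95% were computed from them, which cover counting error only. In *Irf8*-OE 3 the step, in normalized counts per read, was too near 1 for an automated check, although 0% of its values were whole numbers, and edgeR was also run without it. Fold changes are differences of log2(normalized counts + 1), which understate the change of low genes. They were fitted across all listed genes in R 4.3.3 with limma 3.58.1, using its moderated statistics with a mean-variance trend and no covariates, and p-values were adjusted over all listed genes by the Benjamini-Hochberg method. The fit was tested on simulated data. Alternatives were other pseudocounts, a filter, other scalings, edgeR 4.0.16, DESeq2 1.42.0, a replicate block and each sample left out.

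The 5 genes and the gene lists were chosen with earlier results of these data known. Named besides them are the 3 nearest profiles of each gene (1 of those of *Cxcl12* is not reported here), up to 4 listed genes per list with the most normalized counts per kb over all samples, *Irf8*, *Xist* and the Y-linked genes. *Spon2*, *Islr*, *Mzb1*, *Igha* and *Iglc2* are named because they were at the floor. *Mcpt8* and *Prss34* are named as the markers of their list that were higher, and genes not listed as examples. Promoter sequences came from RefSeq (GRCm38.p6).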

Additional observations from a re-analysis of the deposited data

How the results depend on the processing

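All 5 genes kept their direction under every alternative run. With a sample left out this was fixed in advance, because the groups of every listed gene did not overlap. The scalings below were computed on genes that were already selected. The change in log2 fold change was taken for each listed gene. Its median over all listed genes was −0.33 (quantile normalization), 0.65 (equal sums over the listed genes), −0.31 (edgeR with TMM on recovered reads) and −0.95 (DESeq2 with its own size factors). With quantile normalization *Cxcl14*, *Snai1* and *Snai2* were at 0.89, 0.98 and 0.63, 2 of the 5 genes stayed called and 509 genes were called higher. With equal sums, *Postn*, *Cxcl12*, *Cxcl14* and *Snai2* were at 3.81, 2.98, 1.98 and 1.67 and 276 genes were called lower. With TMM, *Postn*, *Cxcl12* and *Snai2* were at 2.87, 2.00 and 0.74, and 4 of the 5 were called. With the size factors of DESeq2, *Postn*, *Cxcl12*, *Cxcl14*, *Snai1* and *Snai2* were at 2.23, 1.36, 0.49, 0.41 and 0.10 with 2 of the 5 called, and 293 genes were called higher. Relative to the median change of −0.95, these last values were 3.17, 2.31, 1.44, 1.35 and 1.05. Other size factors shift all genes nearly alike, so a return close to the values with the authors' size factors was fixed in advance. The share of calls that were higher was 58.6% as reported, 74.3% with equal sums and 34.4% with DESeq2. A pseudocount of 10 gave 0.85 for *Snai2*, with 4 of the 5 called. With each sample left out, values ran from 2.94 to 3.38 for *Postn*, 2.10 to 2.54 for *Cxcl12*, 1.10 to 1.64 for *Cxcl14*, 0.73 to 2.22 for *Snai1* and 0.95 to 1.07 for *Snai2*, with 728 to 778 genes called higher and 510 to 544 lower. Of the 5 genes, 3 were called without Control 2, 4 without *Irf8*-OE 2 and 5 without each of the others. In these fits a lone control is assumed to vary like the *Irf8*-OE group.

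Deviations of same-numbered samples from their group means had correlations of −0.009 and 0.042 by the numbers in the titles and −0.042 and −0.041 by those in the descriptions over 844 genes. With only 2 controls, the deviations of Control 1 and Control 2 mirror each other, so these values are not independent. They cannot decide whether the numbers pair the samples. A replicate block with the title numbers gave 3.13, 2.35, 1.3, 1.33 and 1.07 for *Postn*, *Cxcl12*, *Cxcl14*, *Snai1* and *Snai2*, and 774 genes called higher and 545 lower. A replicate block with the description numbers gave 3.21, 2.31, 1.10, 1.53 and 1.06, and 755 and 516 genes. Tests on recovered reads with the authors' size factors, chosen after seeing the data, gave 1.44 for *Cxcl14* and 1.37 for *Snai1* with edgeR, and 1.44 and 1.36 with DESeq2. Of 85 values of the 5 genes under alternatives, 20 moved by more than the spread between replicates and 0 changed sign. Counts of 13 to 33 reads in the controls limit the precision for *Cxcl14*, *Snai1* and *Snai2*.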

Other observations

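Lists of other blood cell types moved beside the 5 stromal genes in the same samples. All 7 listed of 10 B cell and plasma cell markers rose, and they had a summed level of 3496 to 3941 normalized counts with *Irf8*-OE against 191 to 235 without. Their median log2 fold change was 3.41, or 2.66 with *Mzb1*, *Igha* and *Iglc2*, which were at the floor in the controls, at their bounds. Over the listed genes with a log2 fold change above 0 the median was 1.81, and 58.1% of all listed genes were called higher. *Ighm*, the IgM heavy chain, was at 2017 ± 170 against 189 ± 24.3, and *Cd79b*, a B cell receptor subunit, at 36.7 ± 2.87 against 13.5 ± 0.0366. Of 10 neutrophil markers 4 were listed, of which 2 rose and 2 fell. *Mpo*, myeloperoxidase, was at 996 ± 52.2 against 10.8 ± 0.990 and *Elane*, neutrophil elastase, at 274 ± 28.6 against 123.5 ± 33.5, whereas *Ly6g* was at 9.68 ± 2.72 against 164 ± 15.4 and *Mmp9* at 97.6 ± 21.6 against 379 ± 14.2. *Itgae*, the listed marker of the CD103+ cells that the culture was made to yield, was at 162 ± 17.1 against 51.7 ± 1.56, and *Cd24a* at 3855 ± 255 against 10057 ± 522.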
